A study of Homo sapiens with 6 samples.

Results

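The genes described here are 41 genes of DNA repair and damage signalling, chosen by name from textbook pathways with earlier results of these data known. They comprise 17 of homologous recombination, 12 of the Fanconi pathway, 9 of the damage checkpoint and 3 of mismatch repair. Of these, 35 were measured as single genes among 22411 in all, namely 14, 10, 8 and 3 of the pathways in that order. RAD54B and ATRIP shared their probe sets with another gene, and BRCA2, RBBP8, FANCA and FANCD2 are not analysed here. The cells were HCT-shSLBP, a derivative of the human colorectal carcinoma line HCT116 named for a hairpin RNA directed at SLBP, the stem-loop binding protein needed to process and translate replication-dependent histone mRNAs. Doxycycline at 2 µg/ml had been added to 3 cultures and none to another 3, with 1 Affymetrix Human Transcriptome Array 2.0 per culture. All 6 cultures were of the hairpin line and none lacked the hairpin, so effects of the drug and of the hairpin cannot be told apart. The exposure time, the promoter that drives the hairpin, and whether the line is a clone are not given in the sources used here.

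Homologous recombination repairs a broken chromosome by copying the sister chromatid and is used mainly in S and G2 phase. Its steps are the trimming of the broken ends, the loading of a recombinase filament by mediator proteins, the invasion of the sister, and the undoing of the joint molecules. The Fanconi pathway removes crosslinks between the strands: a core complex and an E2 enzyme attach ubiquitin to the FANCD2-FANCI pair, which then calls in nucleases and recombination. The checkpoint senses breaks through the MRE11-RAD50-NBN complex and ATM, and single-stranded DNA at forks through ATR and its activator TOPBP1, and passes the signal to CHEK2 and CHEK1. Mismatch repair corrects the errors of the replicative polymerases, and HCT116 is a line known to lack it.

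SLBP was lower on every treated array. Its log2 signal was 8.09, 8.04 and 8.08 without the drug and 7.38, 7.19 and 7.32 with it, a change of -0.77 (SE 0.055, limma adjusted p = 0.00322) that left 58.6% of the untreated signal, and the groups did not overlap (exact two-sided permutation test p = 0.1, the smallest that 3 arrays against 3 allow). Array medians lay between 4.12 and 4.17. Of 13 markers of colon epithelium, 12 lay above a background yardstick of 4.52 on the log2 scale, which is the 95th percentile of 359 olfactory receptor genes. CDH17 (2.61) did not. Of 7 fibroblast markers 4 also lay above it on the untreated arrays, COL1A1 (6.27), THY1 (5.16), PDGFRB (4.84) and COL1A2 (4.73), while DCN, LUM and FAP lay under it. Of 7 blood and endothelial markers VWF (4.61) and CDH5 (4.52) lay at or just above it, and PTPRC (1.99) under it. None of these 14 passed the test. Of the 13 colon markers CLDN4 (change 0.21, limma adjusted p = 0.0276) and CLDN7 (0.19, limma adjusted p = 0.0336) were higher with the drug and passed, and 11 did not pass. The part of all these markers in the results below was not tested. Of the 35 measured members, 34 lay above the yardstick and RAD51B under it. The arrays read bulk RNA, in which fewer cells of a kind and less RNA per cell cannot be told apart.

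In doxycycline-treated cells 13 of 14 recombination genes had a lower mean signal, as did 7 of 10 Fanconi genes, 3 of 8 checkpoint genes and 2 of 3 mismatch repair genes. Over all 35 measured members, 8 fell and 1 rose, where "fell" and "rose" mean a limma p-value under 0.05 after Benjamini-Hochberg adjustment over all genes. Across all genes 3.27% fell and 2.93% rose (6.19% either way), and of the 14761 genes above the yardstick 4.57% fell and 4.06% rose. Without any threshold 25 of the 35 had a lower mean, beside 58.2% of all genes and 57.0% of those above the yardstick. At an unadjusted p under 0.05, 17 were lower and 1 was higher, beside 12.7% and 9.85% of all genes. Of the 14 recombination genes 5 fell, of the 10 Fanconi genes 2 fell, of the 8 checkpoint genes 1 fell and 1 rose, and of the 3 mismatch repair genes none passed the test in either direction, also at an unadjusted p under 0.05. The median log2 change was -0.17 for recombination, -0.10 for Fanconi, 0.024 for checkpoint and -0.012 for mismatch repair, beside -0.019 over all genes.

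The counts of calls depended on single arrays. When untreated array 1, 2 or 3 was dropped in turn, 5, 3 and 2 members fell. When treated array 1, 2 or 3 was dropped, 6, 5 and 1 fell. The number of all genes called also went down, from 1388 to 340, 435 and 206 on dropping an untreated array, and to 1098, 583 and 132 on dropping a treated one. EXO1 kept its call in each of the 6 fits, and BRCA1 in all but the fit that dropped treated array 3 (adjusted p = 0.0524). When every one of the 70523 probe sets was tested, EXO1 alone of the 9 kept its call (limma adjusted p = 0.0414).

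**Figure D1:**
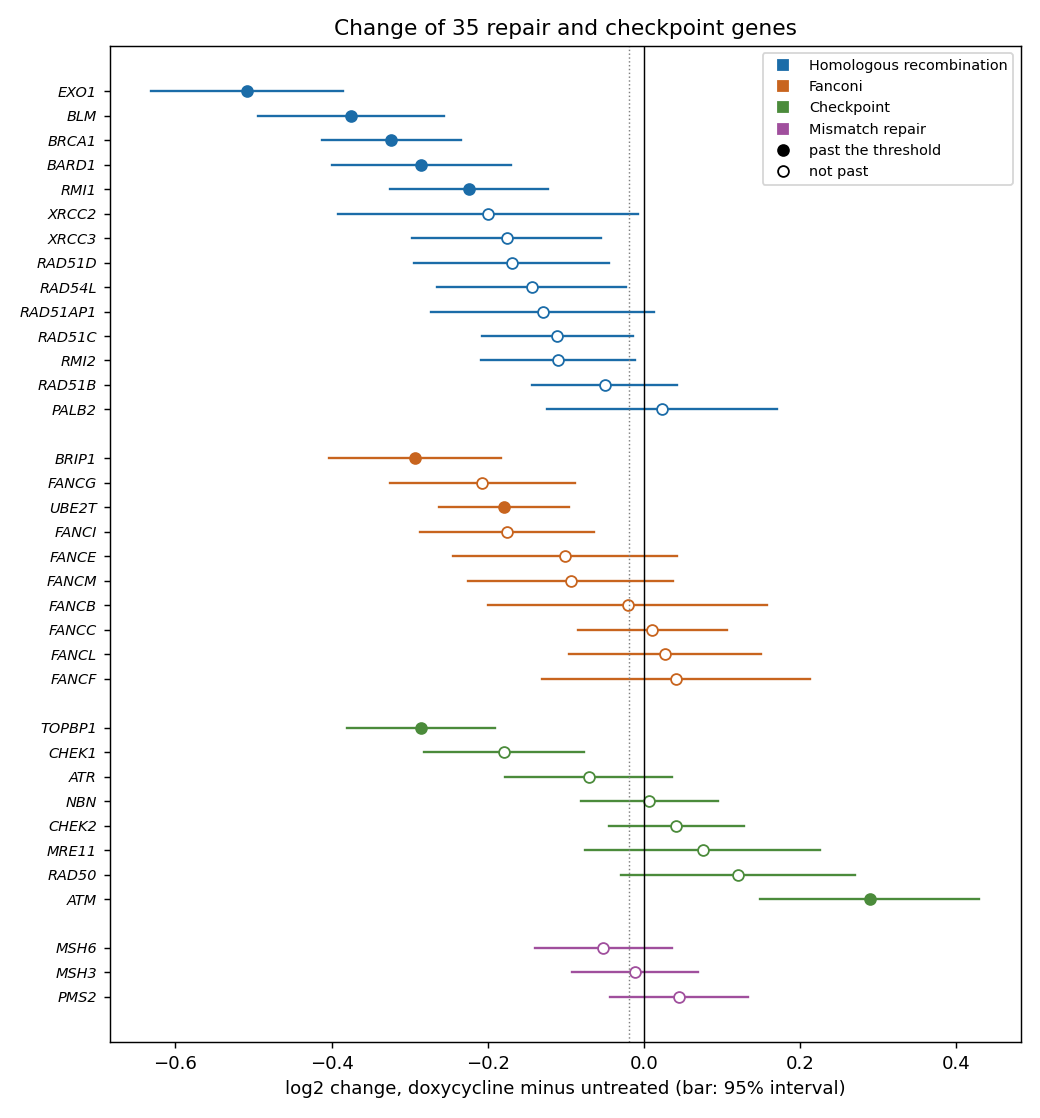
Log2 change (x axis, doxycycline minus untreated) of the 35 measured genes, grouped by pathway and ordered within it, with the 95% interval from limma as a bar. Filled points passed the threshold, open points did not, and the dotted line marks the median of all genes at -0.019. The recombination genes run from -0.51 to 0.02, and all but PALB2 lie to the left of 0.

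Means over each pathway's members were also taken on the single arrays. For recombination the mean log2 signal was 0.21, 0.20 and 0.18 below the untreated mean on the 3 treated arrays, while the untreated arrays lay within 0.022 of it. For the Fanconi genes the treated arrays were 0.13, 0.069 and 0.099 below, and the untreated arrays lay within 0.026. Both pathways thus had every treated array under every untreated one. For the checkpoint genes the treated arrays were at -0.055, 0.047 and 0.0063, beside an untreated range of -0.046 to 0.031. This mean joins genes that moved in opposite directions, with changes from -0.29 to 0.29. For mismatch repair the treated arrays were at -0.018, 0.0031 and -0.0037, and the untreated range was -0.017 to 0.0093. Set against each other, the change of the recombination mean was 0.20 lower than that of the checkpoint mean, 0.19 lower than that of mismatch repair and 0.10 lower than that of the Fanconi mean. These differences between pathways were not tested, because the genes were chosen with earlier results of these data known. They also depend on where shared genes are counted. BRCA1, PALB2, RAD51C and XRCC2 also bear Fanconi names, EXO1 also acts in mismatch repair, and MRE11, RAD50 and NBN also trim ends for recombination. With those genes moved, 3 of 12 recombination genes and 3 of 14 Fanconi genes fell, with medians of -0.14 and -0.11. The checkpoint median turned to -0.071. The mean changes were then -0.12 for recombination, -0.11 for Fanconi, -0.041 for checkpoint and -0.13 for 4 mismatch repair genes with EXO1. By mean, recombination was then no longer the lowest pathway and lay close to Fanconi. The medians also depend on dim genes: with only genes at or above the median signal of all genes kept, they were -0.19 over 12 recombination genes, -0.175 over 7 Fanconi genes and -0.071 over 5 checkpoint genes, so recombination and Fanconi lay close together. Among the 35 members the median change was -0.021 in the dimmer and -0.189 in the brighter genes (Pearson r = -0.43 and Spearman rho = -0.47 between signal and change). This correlation is across genes, which share the 6 arrays and are not independent replicates, and signals of different probe sets also differ by probe.

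**Figure D2:**
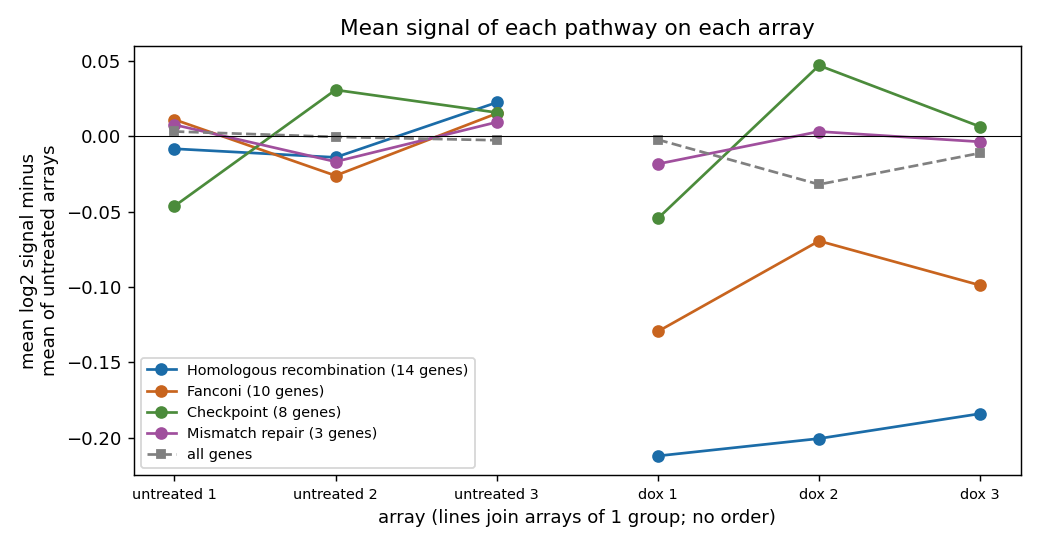
Mean log2 signal over the measured genes of each pathway on each array (y axis), minus the mean of the 3 untreated arrays, with the mean over all 22411 genes as grey squares. The lines only join arrays of a group, which have no order. Recombination lies at -0.18 to -0.21 on the treated arrays and Fanconi at -0.069 to -0.13, whereas checkpoint and mismatch repair stay near 0. The checkpoint mean includes both a rise (ATM, 0.29) and a fall (TOPBP1, -0.29).

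In homologous recombination the largest fall was in EXO1, a 5' to 3' exonuclease that trims broken ends and also excises the strand with the error in mismatch repair. Its log2 signal was 7.49, 7.54 and 7.41 untreated and 6.90, 7.04 and 6.98 treated. Every treated culture lay under every untreated one, with a change of -0.51 (SE 0.052, limma adjusted p = 0.00719) that left 70.3% of the signal. For the BRCA1-BARD1 ubiquitin ligase, which promotes trimming and filament loading, the mRNA signal was lower for both subunits. BRCA1 read 6.46, 6.45 and 6.42 untreated and 6.10, 6.16 and 6.10 treated, and its partner BARD1 read 6.23, 6.32 and 6.38 against 6.05, 6.04 and 5.98. Neither gene's groups overlapped, and the changes were -0.32 (SE 0.038, limma adjusted p = 0.00875) and -0.28 (SE 0.049, limma adjusted p = 0.022). PALB2, whose protein bridges BRCA1 and the recombinase loader, showed no such shift in mRNA signal. It read 6.30, 6.11 and 6.23 untreated and 6.20, 6.32 and 6.19 treated. Its 95% interval ran from -0.12 to 0.17, so a fall as large as that of BRCA1 lies outside it.

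For the dissolvasome, in which the BLM helicase and its cofactors undo joint molecules without crossing over, the mRNA signal was lower for BLM and RMI1. BLM read 7.14, 7.30 and 7.17 untreated and 6.82, 6.82 and 6.85 treated, with the treated arrays close together. RMI1, which stimulates the complex's topoisomerase, read 6.58, 6.62 and 6.67 against 6.35, 6.42 and 6.43. The changes were -0.37 for BLM (SE 0.051, limma adjusted p = 0.0118) and -0.22 for RMI1 (SE 0.043, limma adjusted p = 0.0302). The third measured subunit, RMI2, did not pass the test at -0.11 (95% interval -0.21 to -0.012, limma adjusted p = 0.176). RMI1 lost its call whenever an array was left out, with adjusted p between 0.0644 and 0.113. BLM lost it on dropping array 3 of either group, and BARD1 on dropping array 2 or array 3 of either group, with adjusted p of up to 0.0546 and 0.0904.

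The recombinase paralogs, which stabilise the filament, were lower by smaller amounts, and none of the 5 passed. XRCC3 stood at -0.18 (limma adjusted p = 0.0958), RAD51D at -0.17 (adjusted p = 0.112), XRCC2 at -0.20 (adjusted p = 0.205) and RAD51C at -0.11 (adjusted p = 0.165). For XRCC3, RAD51D and RAD51C the groups did not overlap, while XRCC2 varied more between cultures and overlapped, with 6.77, 6.68 and 6.94 against 6.54, 6.53 and 6.72. RAD51B, which lay under the yardstick, stood at -0.050. Of the genes that act on the filament itself, the translocase RAD54L stood at -0.14 (adjusted p = 0.155) and RAD51AP1, which promotes strand invasion, at -0.13 (adjusted p = 0.264). In all, 11 of the 14 recombination genes had every treated array under every untreated one, whereas 16.7% of all genes and 20.7% of those above the yardstick did. The number of recombination genes that fell was 3 on dropping untreated array 2, 2 on dropping untreated array 3, 3 on dropping treated array 2 and 1 on dropping treated array 3.

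**Figure D3:**
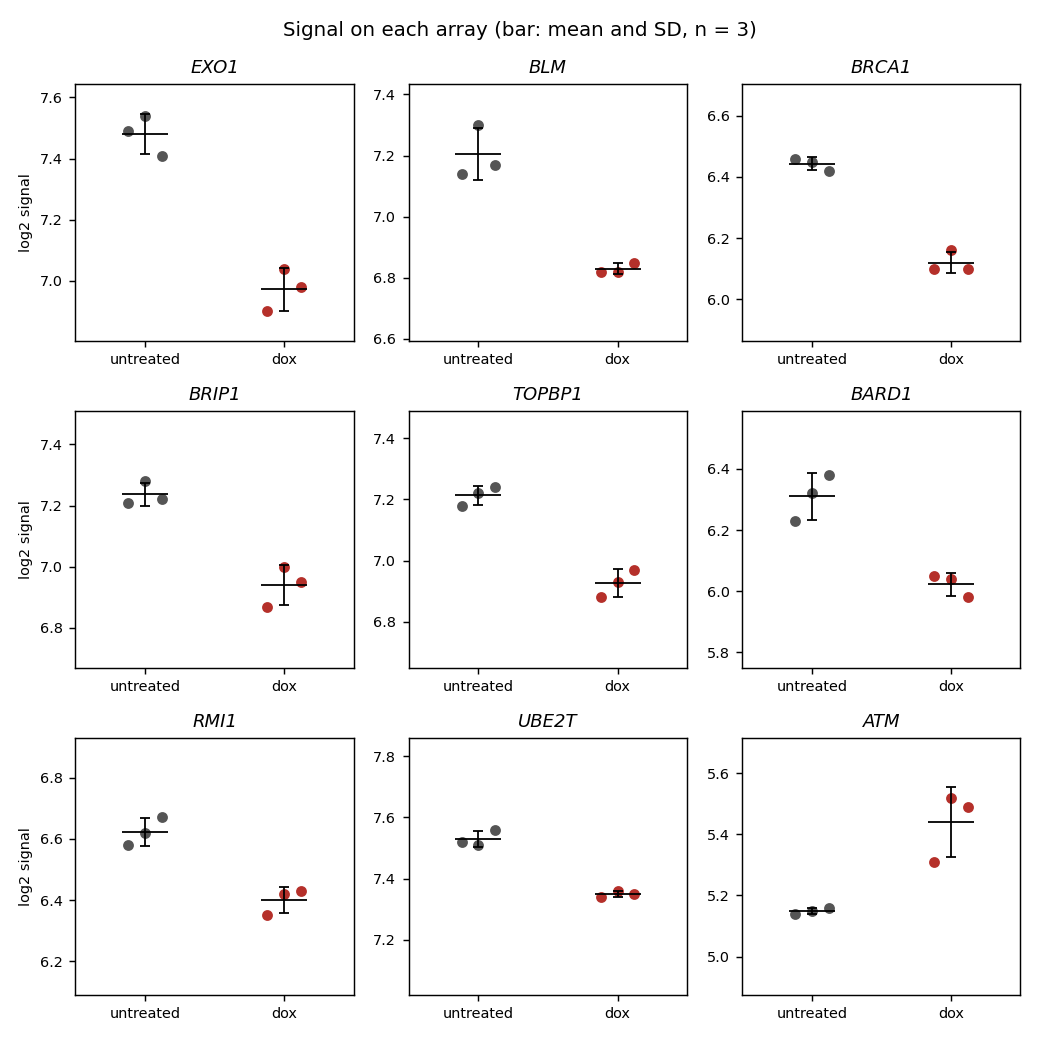
Log2 signal on each array (points, y axis) of the 9 genes that passed the threshold, with the mean and SD of each group of 3 arrays as bars, every panel spanning the same number of log2 units. In each panel the 2 groups are apart; ATM is the gene that was higher, with 5.31, 5.52 and 5.49 on the treated arrays.

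In the Fanconi pathway the falls lay in BRIP1 and UBE2T. BRIP1, a helicase that binds BRCA1 and also bears the name FANCJ, read 7.21, 7.28 and 7.22 untreated and 6.87, 7.00 and 6.95 treated (change -0.29, SE 0.047, limma adjusted p = 0.0189). UBE2T, the E2 enzyme that supplies the ubiquitin for the FANCD2-FANCI pair, read 7.52, 7.51 and 7.56 against 7.34, 7.36 and 7.35 (change -0.18, SE 0.035, limma adjusted p = 0.0332). Both groups of arrays were tight for UBE2T and did not overlap for either gene. FANCI, a member of the pair that receives the ubiquitin, was at -0.17 (adjusted p = 0.0774) and did not pass, with 7.77, 7.73 and 7.77 against 7.52, 7.67 and 7.55.

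The mRNA signals of the core complex as a whole showed little shift. None of its 7 measured subunits passed the test, and their median change was -0.021. FANCG, an adaptor of the complex, was lowest at -0.21 (limma adjusted p = 0.0586). It was the single core subunit of the 7 whose groups did not overlap, beside 16.7% of all genes that were lower without overlap. FANCE (-0.10), the subunit that binds FANCD2, and FANCM (-0.094), the translocase that anchors the complex to DNA, followed. FANCB (-0.021) and FANCC (0.011) lay near 0, as did FANCL (0.027), the catalytic E3 subunit, and FANCF (0.041). For FANCL the 95% interval was -0.096 to 0.15 and for FANCC -0.085 to 0.11, so changes of the size measured in BRIP1 lie outside both. The number of Fanconi genes that fell was 0 on dropping any untreated array or treated array 3, and 1, which was BRIP1, on dropping treated array 1 or 2. UBE2T also lost its call with each array centred on its median (adjusted p = 0.0508).

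The checkpoint genes held 1 fall and 1 rise. On the branch that senses single-stranded DNA, TOPBP1 fell, with 7.18, 7.22 and 7.24 untreated and 6.88, 6.93 and 6.97 treated (change -0.29, SE 0.040, limma adjusted p = 0.0132). CHEK1, the effector kinase of that branch, read 7.02, 7.06 and 7.03 against 6.81, 6.93 and 6.83. Its groups did not overlap, but it did not pass the test (-0.18, SE 0.043, limma adjusted p = 0.0575). ATR, the kinase itself, was at -0.071 (95% interval -0.18 to 0.036) with overlapping groups.

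On the branch that senses breaks, ATM was the only member that rose. It read 5.14, 5.15 and 5.16 untreated and 5.31, 5.52 and 5.49 treated, so the first treated array lay nearest to the untreated ones, and the groups did not overlap. The change was 0.29 (SE 0.059, limma adjusted p = 0.0379), or 122% of the untreated signal. No gene of the MRE11-RAD50-NBN complex passed: RAD50 was at 0.12 (limma adjusted p = 0.326), MRE11 at 0.075 (adjusted p = 0.549) and NBN at 0.0068 (adjusted p = 0.94). The intervals of RAD50 (-0.03 to 0.27), MRE11 (-0.076 to 0.23) and NBN (-0.081 to 0.095) do not reach the falls seen in BRCA1 or BLM. CHEK2, the effector kinase under ATM, was at 0.041 (95% interval -0.045 to 0.13). ATM lost its call on dropping any untreated array or treated array 2 or 3, with adjusted p between 0.0949 and 0.129, and with each array centred on its median (adjusted p = 0.0525). TOPBP1 lost its call on dropping untreated array 2 or 3 or treated array 3, with adjusted p of up to 0.0664. No test was made of the difference between the branches.

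The mismatch repair genes were the closest to 0. MSH6, the subunit that recognises single mismatches, read 5.44, 5.39 and 5.46 untreated and 5.38, 5.36 and 5.39 treated, a change of -0.052 (limma adjusted p = 0.468). MSH3, the subunit for larger loops, was at -0.012 (95% interval -0.092 to 0.069). PMS2, the endonuclease subunit, read 7.49, 7.45 and 7.47 against 7.50, 7.56 and 7.50. Its treated arrays were all above its untreated ones, as for 12.5% of all genes, but the change of 0.045 did not pass (limma adjusted p = 0.539). PMS2 has near-identical pseudogene copies, so its probes may also read these, and the same holds for CHEK2. In all 3 genes the 95% interval lies between -0.14 and 0.13.

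**Figure D4:**
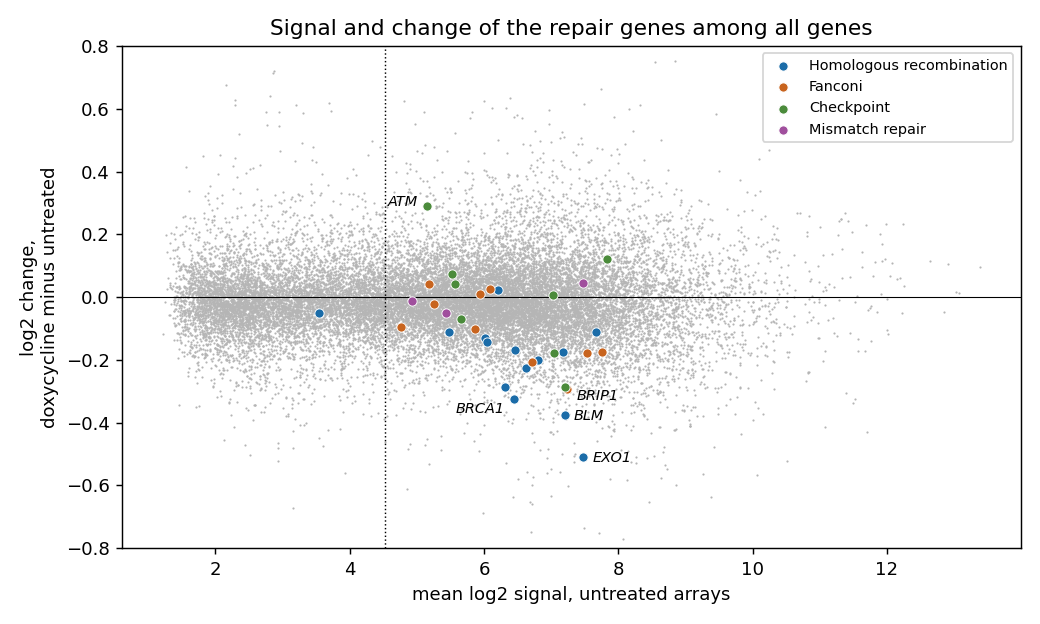
Log2 change (y axis) against mean log2 signal on the untreated arrays (x axis) for the 35 genes, coloured by pathway, over all genes in grey, with genes beyond the y range not drawn and the yardstick of 4.52 as a dotted line. All 9 genes that passed the test lie to the right of the yardstick, with EXO1 lowest at -0.51 and ATM highest at 0.29.

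Genes of the same pathways outside the 41 were also read from lists of further members. Of 34 measured other recombination genes 4 fell and none rose, with a median of -0.062. They were BRCC3 (-0.23, limma adjusted p = 0.0181), a deubiquitinase of the BRCA1-A complex, PSMC3IP (-0.24), a recombinase cofactor, GEN1 (-0.25), a resolvase of joint molecules, and TOP3A (-0.20, limma adjusted p = 0.0391), the topoisomerase partner of BLM. Of 17 measured other Fanconi genes 5 fell and none rose, with a median of -0.14. Among them were UHRF1 (-0.53, SE 0.051, limma adjusted p = 0.00615), which binds hemimethylated DNA and senses crosslinks, RFWD3 (-0.34), a ubiquitin ligase, and the nucleases DCLRE1A (-0.31) and DCLRE1B (-0.25). Of 23 measured other checkpoint genes 5 fell and none rose, with a median of -0.061. CLSPN, the adaptor through which ATR activates CHEK1, was lowest at -0.60 (SE 0.045, limma adjusted p = 0.00322), followed by the phosphatase CDC25A (-0.48) and the fork protection partners TIPIN (-0.36) and TIMELESS (-0.24). Of 9 measured other mismatch repair genes 1 fell, PCNA (-0.34), the sliding clamp shared with replication, and 2 rose, MSH5 (0.35, SE 0.041, limma adjusted p = 0.00875) and MSH4 (0.21), a pair that acts in meiosis. MSH4 had a signal of 2.10 on the untreated arrays, under the yardstick.

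Further repair pathways were read in the same way. In end joining 1 of 13 genes fell, XRCC6 (-0.25), the smaller subunit of Ku, and LIG3 did not pass (0.16, limma adjusted p = 0.0508), with a median of -0.027. In nucleotide excision repair 2 of 16 fell, CETN2 (-0.26) and ERCC3 (-0.16), with a median of -0.048. In base excision repair 4 of 20 fell and 1 rose, with a median of -0.076. FEN1 (-0.60), a flap nuclease that also matures Okazaki fragments, UNG (-0.30), which removes uracil, and HMCES (-0.23), which shields abasic sites at forks, were among the falls, and PARP2 (0.35, limma adjusted p = 0.0103), a sensor of strand breaks, was the rise. Shares of 7.69%, 12.5% and 20% in these lists stand beside 35.7% in the 14 recombination genes and 20% in the 10 Fanconi genes. With shared genes moved, the recombination share was 25% and the Fanconi share 21.4%. In the lists of further members 11.8% of recombination, 29.4% of Fanconi, 21.7% of checkpoint and 11.1% of mismatch repair genes fell. Over all genes 3.27% fell, and no test was made between these shares.

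Promoter windows from RefSeq (GRCh38.p14), 250 bases before to 50 after an annotated start, were found for 32 of the 35 genes, including all 8 that fell. They were searched on both strands for the E2F sites TTTCGCGC and TTTGGCGC, bound by the factors that turn on S phase genes, for the CCAAT box of NF-Y and for TTTGAA, the core of the cell cycle homology region. The windows of the genes with the largest falls, EXO1 (chr1:241847954-241848253, plus strand), BLM (chr15:90717096-90717395, plus strand) and BRCA1 (chr17:43125315-43125614, minus strand), are shown first and those of FANCC (chr9:95317660-95317959, minus strand) and MSH3 (chr5:80654402-80654701, plus strand), whose change was nearest to 0 among genes with a printable window, after them. Each is given 5' to 3' on the gene's strand, with the motifs in capitals; where a gene has several windows, the one richest in CG is shown.
EXO1: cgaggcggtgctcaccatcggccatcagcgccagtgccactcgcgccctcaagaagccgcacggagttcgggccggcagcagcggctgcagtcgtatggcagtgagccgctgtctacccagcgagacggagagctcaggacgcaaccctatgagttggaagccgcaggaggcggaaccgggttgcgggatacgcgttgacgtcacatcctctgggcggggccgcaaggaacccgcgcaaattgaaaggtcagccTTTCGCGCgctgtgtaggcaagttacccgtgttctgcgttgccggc
BLM: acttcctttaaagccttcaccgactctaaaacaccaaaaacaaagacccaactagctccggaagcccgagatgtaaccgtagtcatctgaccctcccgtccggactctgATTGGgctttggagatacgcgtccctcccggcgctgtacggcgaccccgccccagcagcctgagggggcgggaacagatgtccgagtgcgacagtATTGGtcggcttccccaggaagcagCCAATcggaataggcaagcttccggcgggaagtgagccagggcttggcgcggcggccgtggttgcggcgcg
BRCA1: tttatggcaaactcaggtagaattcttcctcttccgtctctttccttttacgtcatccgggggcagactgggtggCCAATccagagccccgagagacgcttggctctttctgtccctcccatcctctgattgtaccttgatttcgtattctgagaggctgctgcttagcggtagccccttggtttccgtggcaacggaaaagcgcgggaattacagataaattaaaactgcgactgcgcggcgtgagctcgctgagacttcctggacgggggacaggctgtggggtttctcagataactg
FANCC: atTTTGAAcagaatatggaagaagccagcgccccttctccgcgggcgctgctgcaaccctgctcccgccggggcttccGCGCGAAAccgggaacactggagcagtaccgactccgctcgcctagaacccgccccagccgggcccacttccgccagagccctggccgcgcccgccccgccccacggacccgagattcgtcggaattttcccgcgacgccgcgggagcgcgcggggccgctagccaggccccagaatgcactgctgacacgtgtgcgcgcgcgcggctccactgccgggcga
MSH3: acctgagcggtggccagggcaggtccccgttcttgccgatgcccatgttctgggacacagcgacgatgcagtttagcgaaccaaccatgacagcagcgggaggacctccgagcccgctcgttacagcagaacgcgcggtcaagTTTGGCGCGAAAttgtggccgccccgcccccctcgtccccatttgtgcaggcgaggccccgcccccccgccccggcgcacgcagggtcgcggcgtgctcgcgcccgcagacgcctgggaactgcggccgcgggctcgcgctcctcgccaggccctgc

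The letters of an E2F site occurred on both sides. EXO1 holds TTTCGCGC from base 5 after its start, FANCC holds it on the other strand, and MSH3 holds TTTGGCGC and TTTCGCGC on opposite strands, overlapping each other. BLM holds 3 CCAAT boxes and BRCA1 holds 1, and neither window holds an E2F site in these letters. Over all windows of a gene, an E2F site was found in 2 of the 8 genes that fell, EXO1 and TOPBP1, and in 2 of the 24 others with a window, FANCC and MSH3. Among 15843 protein-coding genes with a window 1.99% held it. A CCAAT box was found in 5 of the 8 and in 12 of the 24, and in 42.1% of protein-coding genes. TTTGAA was found in 2 of the 8, BRIP1 and UBE2T, in 2 of the 24, ATM and FANCC, and in 15.8% of protein-coding genes. These are matches of letters, which do not show binding.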

How the data were processed

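Total RNA from 6 cultures was measured on 1 array each, with groups and replicate numbers from the sample titles. The series' design text calls the cultures independent, and their number limits the precision. The authors deposited log2 values, and the submitters' processing notes name RMA, a method that subtracts background, equalises the arrays and summarises each probe set. That the scale is log2 was read from the range of the values, and the tool version and genome build are not given in the sources used here. Of 70523 probe sets, 23781 carried 1 gene symbol in the platform annotation, 1543 carried several and 45199 were unnamed here. Symbols were updated through RefSeq's table for GRCh38.p14 (306 changed), and the probe set with the highest mean was kept for each of 22411 genes.

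The test was limma (version 3.58.1, run under R 4.3.3), using lmFit and eBayes with treatment as the single term and Benjamini-Hochberg adjustment over all genes. On simulated data it recovered 34.3% of genes with a log2 change of 0.3, 80.6% at 0.5 and 98.5% at 1. Of 152 calls there, 10 were false. The real data gave 1388 calls, so these shares need not hold for them. A gene that did not pass may still have changed by a small amount. Tables and figures used Python 3.11.15, pandas 2.3.3, scipy 1.17.1 and matplotlib 3.10.9. The genes and lists were chosen with earlier results of these data known, and so was the olfactory receptor yardstick, so no list was tested as a set and lists are given by counts and medians beside those of all genes. Values on every array are printed for the genes that passed and for those with the smallest adjusted p in each pathway, and for some others chosen after their values were seen. From each further list the rule named the 2 genes with the smallest adjusted p and up to 2 more that passed with the largest change. The alternatives were other normalizations, background subtraction, a filter on dim genes, other variance models, other uses of probe sets, the replicate number as a block, each array left out, and another assignment of shared genes.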

Additional observations from a re-analysis of the deposited data

How the results depend on the processing

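The recombination genes kept a lower median under every alternative, at -0.14 with array weights, -0.137 with shared genes moved and -0.193 to -0.138 with each array left out. EXO1 kept its call in all alternatives, and each other call was lost under at least 1 alternative: the test of every probe set ended all 8, the replicate block ended those of BARD1, BLM, RMI1, UBE2T, BRIP1 and ATM, median centring those of UBE2T and ATM, and dropping an array each of them at least once. Genes called changed numbered 2162 of 15864 after background subtraction, 2611 of 11206 with dim genes left out and 3225 of 22411 under array weights. With every probe set tested, 344 of 70523 were called. With an array left out, 132 to 1098 of 22411 genes were called. Members that fell numbered 13 of the 25 left without dim genes, 1 with every probe set and 1 to 6 with an array left out. Members that rose numbered 0 with median centring, without dim genes (ATM was filtered out) and with every probe set. They numbered 0 to 1 with an array left out. Fits with an array left out have fewer samples, and the fit of every probe set adjusts over more features and also has other standard errors (0.048 for BRCA1). Over all genes, same-numbered arrays did not deviate together (correlations of 0.03, -0.001 and -0.016), so the numbers were not treated as pairs. Single members and pathways differed in this. The checkpoint mean was lowest on array 1 and highest on array 2 in both groups, which the other pathway means were not. The replicate block took the standard error of XRCC2 from 0.081 to 0.039, but that of PALB2 from 0.062 to 0.072. With the replicate block, 331 genes changed, 3 members fell (2 of recombination and 0 of Fanconi) and 0 rose. Recombination falls were 7 of the 12 genes left without dim genes, where XRCC3 and RAD51D were added (limma adjusted p down to 0.0304 and 0.0378). They were 6 with array weights, where XRCC3 was added, and 1 with every probe set. With shared genes moved they were 3, and with an array left out 1 to 4. Fanconi falls were 1 with median centring, 4 with background subtraction, without dim genes, with trend and robust settings or with array weights, 0 with every probe set, and 0 to 1 with an array left out; the genes added were FANCG and FANCI. Checkpoint falls were 2 under those same 4 settings, with CHEK1 added, 0 with every probe set and 0 to 1 with an array left out. Mismatch repair falls were 1 with EXO1 counted there. Without dim genes, fewer members remained and the medians were -0.175 for Fanconi, -0.0709 for checkpoint and 0.0448 for mismatch repair. With shared genes moved, checkpoint was at -0.0709 and mismatch repair at -0.0319. After repeated quantile normalization the mismatch repair median, which is MSH3, turned to 0.0021. Genes near 0 changed sign: with array weights PALB2 (-0.012), FANCB (0.0091) and FANCF (-0.0018), and over the fits with an array left out NBN (-0.006 to 0.0267), PALB2 (-0.0301 to 0.0662), FANCF (-0.0411 to 0.0856), FANCB (-0.0678 to 0.0596), FANCC (-0.0126 to 0.0246) and FANCL (-0.0185 to 0.0651). The cause of the other shifts was not tested. The 3 arrays in a group limit the precision of every change.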

Other observations

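Probe sets that carry a member's symbol beside another gene's were left out of the counts above. The probe set of RAD54B and FSBP read 5.98, 5.99 and 5.98 untreated and 5.74, 5.84 and 5.81 treated, a change of -0.18 (SE 0.049, limma adjusted p = 0.163 over all probe sets) with groups that did not overlap. The probe set of TREX1 and ATRIP read 6.28, 6.27 and 6.31 against 6.25, 6.12 and 6.17, a change of -0.11 (SE 0.053, limma adjusted p = 0.413). RAD54B encodes a translocase of recombination and ATRIP the partner of ATR, and these signals cannot be assigned to either gene of a pair.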
